A study of Mus musculus with 18 samples.

Results

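Oxidative phosphorylation subunit genes were taken from the annotated gene symbols of the count table. They were the protein-coding mouse genes whose symbols start with Nduf, Sdha, Sdhb, Sdhc, Sdhd, Uqcr, Cox4i, Cox5, Cox6, Cox7, Cox8 or Atp5, together with the 13 protein-coding genes of the mitochondrial genome. The rule found 111 of the 54752 genes in the table, 98 nuclear and 13 mitochondrial, under 110 symbols, because Atp5o carries a pair of identifiers. The prefixes also take in 8 tissue isoforms and 14 assembly factors, namely 8 Ndufaf and 4 Sdhaf genes with Cox7a2l and Atp5s. Of the nuclear members, 44 belong to complex I, 8 to complex II, 8 to complex III, 20 to complex IV and 18 to complex V, with Ndufa4 and Ndufa4l2 placed in complex IV. The mitochondrial members comprise 7 genes of complex I, 1 of complex III, 3 of complex IV and 2 of complex V.

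RNA was sequenced from mouse ovarian cancer cells and tumors in 6 groups of 3 libraries. The groups were HM-1 cells labelled Cd276KO and HM-1 control cells, ID8 cells labelled Cd276KO and ID8 control cells, and intradermal HM-1 tumors grown from cells labelled Cd276KO or from control cells. Cd276 encodes the immune checkpoint protein B7-H3, and the series asked how its depletion changes expression. HM-1 is labelled with the hybrid strain B6C3F1 and was cultured in MEM alpha, ID8 with the strain C57BL6 and in RPMI medium, and the tumors were taken from B6C3F1 mice on day 10. The labels call the libraries biological replicates without giving the number of clones, cultures or mice, and p-values therefore reflect only how far these libraries differ among themselves, which may be technical variation. The way the knockout and the controls were made is not given in the sources used here.

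Oxidative phosphorylation couples electron transfer along the inner mitochondrial membrane to ATP synthesis. Complex I takes electrons from NADH and complex II from succinate, complex III passes them to cytochrome c, complex IV hands them to oxygen, and complex V uses the proton gradient to make ATP. Complexes I, III, IV and V mix subunits encoded in the nucleus with subunits encoded in mitochondrial DNA, whereas complex II is wholly nuclear.

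Libraries held between 17349082 and 30959773 counts. Cd276 itself had 47.2, 47.7 and 44.8 CPM (counts per 1000000 counts of the library) in HM-1 cells labelled Cd276KO, against 74.2, 93.5 and 91.5 CPM in HM-1 controls, and was lower by edgeR's quasi-likelihood test (log2 fold change -0.85, SE 0.10, adjusted p = 0.00146). In ID8 cells it had 18.3, 18.8 and 21.0 CPM under the label Cd276KO and 21.1, 21.1 and 20.6 CPM in controls, without a call (log2 fold change -0.04, SE 0.08, edgeR adjusted p = 0.692). Tumors labelled Cd276KO had 73.2, 97.2 and 89.5 CPM and control tumors 142, 107 and 116 CPM, also without a call (-0.45, SE 0.14, edgeR adjusted p = 0.105). The transcript level therefore sets the label Cd276KO apart from its controls by the test in HM-1 cells, and did not do so in ID8 cells or tumors, and groups are named here by their labels. Keratin genes Krt8 and Krt18 of epithelial cells were abundant in HM-1 cultures (2406 to 2851 CPM and 1137 to 2203 CPM), while Epcam was at 0 in all 6 HM-1 cultures and Pax8 reached at most 0.567 CPM there.

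A pair of control libraries stood apart in the members, and results that rest on them are given with and without them. In HM-1 control library 1, 85 of 89 nuclear members had their highest level of the 3 controls, 95.5%, against 40.5% of other nuclear protein-coding genes, with median log2 ratios to the other controls of 0.55 for members and -0.07 for other genes. Short genes moved with them: other genes under 1000 exonic bases had a median log2 ratio of 0.55 and 93.2% of them were highest in that library. In control tumor library 3, 78 of 92 nuclear members were highest, 84.8%, against 36.8% of other genes, with medians of 0.31 and -0.09 and with 0.58 for other short genes. Markers of skin keratinocytes moved with that library, with a sum of 208 CPM over 5 genes against at most 7.49 CPM in the other tumors (Krt14 107.8 and Krt5 51.4 CPM there), and its fibroblast markers summed to 364 CPM, the lowest of all tumors. The part of transcript length and of these cell types in the results below was not tested.

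Levels of different genes were compared per length, as TPM (counts divided by annotated exon length and scaled to 1000000 per library). Atp5b, the catalytic beta subunit of ATP synthase, and Cox8a, a small cytochrome c oxidase subunit, were the nuclear pair with the highest mean TPM in 5 of the 6 groups. HM-1 cells labelled Cd276KO averaged 1253 ± 33.1 TPM of Atp5b and 1061 ± 45.9 TPM of Cox8a, against 1189 ± 13.7 and 1208 ± 85.7 TPM in HM-1 controls (SD, n = 3 each). ID8 cells labelled Cd276KO averaged 1940 ± 82.2 and 2281 ± 48.7 TPM, against 1630 ± 49.0 and 1838 ± 193 TPM in ID8 controls. In control tumors Cox6a1 lay between Cox8a and Atp5b, at 727 ± 200.3 TPM beside 1007 ± 49.4 and 690 ± 125 TPM, an order within the SD for Cox6a1 and Atp5b. The median nuclear member had 119 TPM in HM-1 cells labelled Cd276KO and 139 TPM in HM-1 controls, 172 and 157 TPM in the ID8 groups, and 102 and 112 TPM in the tumor groups.

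Summed over the 98 nuclear genes, members took 0.934%, 0.951% and 0.928% of counts in HM-1 cells labelled Cd276KO, against 1.34%, 1.00% and 1.00% in HM-1 controls. The groups did not overlap, but controls 2 and 3 lay close to the Cd276KO libraries and control 1 far above them. ID8 cells labelled Cd276KO had 1.45%, 1.42% and 1.41%, all above the 1.28%, 1.19% and 1.35% of ID8 controls. Tumors labelled Cd276KO had 0.830%, 0.735% and 0.740%, below control tumor 3 and overlapping the others at 0.830%, 0.799% and 0.962%. The 13 mitochondrial genes took 1.47%, 1.16% and 1.54% in HM-1 cells labelled Cd276KO, all above the 1.11%, 1.11% and 1.12% of HM-1 controls. They averaged 1.15% ± 0.29 in ID8 cells labelled Cd276KO and 1.29% ± 0.29 in ID8 controls, and 1.95% ± 0.35 in tumors labelled Cd276KO and 2.07% ± 0.22 in control tumors (SD, n = 3 each), differences smaller than the spread. These sums are descriptions without a test.

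**Figure D1:**
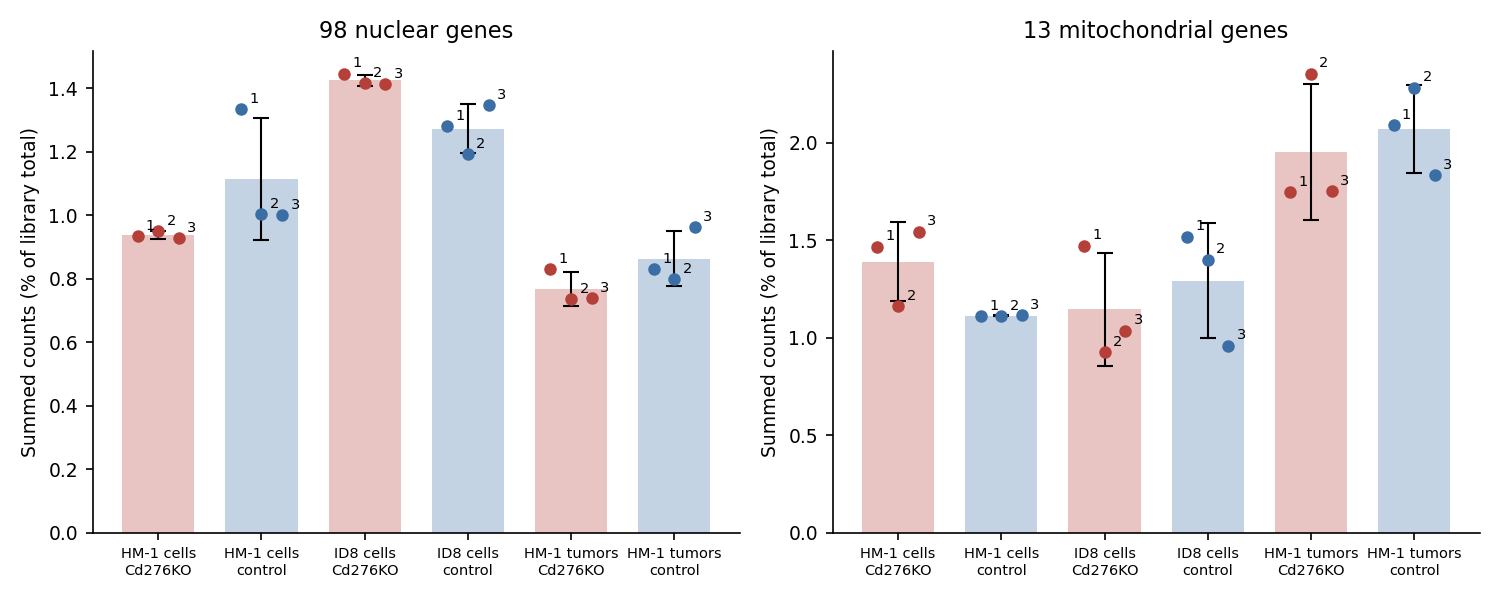
Share of each library's counts in the 98 nuclear (left) and 13 mitochondrial (right) oxidative phosphorylation genes, in percent. Points are libraries with their replicate number, bars and error bars are mean and SD (n = 3). All 6 tumors lie above all 12 cultures in mitochondrial genes, and HM-1 control 1 stands apart from the other HM-1 libraries in nuclear genes at 1.34%.

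Only 7 of the 13 mitochondrial genes carried appreciable counts. mt-Co1, mt-Cytb, mt-Nd1, mt-Nd2, mt-Nd4, mt-Nd5 and mt-Nd6 ranged between 163 and 13100 CPM, whereas mt-Co2, mt-Co3, mt-Atp6, mt-Atp8, mt-Nd3 and mt-Nd4l lay between 0 and 1.45 CPM in every library. Of the sequence windows of 50 bases in mt-Co2, mt-Co3, mt-Atp6, mt-Nd3 and mt-Nd4l, 97.99% to 100% also occur in annotated nuclear transcripts, with the closest copies of all of them in pseudogenes on chromosome 1. None of the windows of mt-Atp8, which overlaps mt-Atp6, had such a copy, and neither did those of mt-Cytb, mt-Nd1 and mt-Nd6, while the share was 51.1% for mt-Co1 and 62.2% for mt-Nd4. The part of these copies in the low counts was not tested. Levels of the 6 low genes are therefore not read as expression, and levels of mt-Co1 and mt-Nd4 are uncertain for the same reason. In all, 53 members, mitochondrial ones included, overlap the span of another annotated gene, introns included, by as little as 1 base for mt-Atp6 and mt-Co3. The strand setting is not given in the sources used here, so reads within the shared bases may not be told apart. Ndufb9, Ndufb8 and Cox4i1, given below, share 3604, 4260 and 5986 bases with another protein-coding gene on the same strand.

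In HM-1 cells labelled Cd276KO, 12 of 90 nuclear members tested were lower than in controls and none was higher by edgeR, while 3 of 10 mitochondrial members were higher. Over all genes tested, 27.7% were called, 11.6% higher and 16.1% lower, so the lower share of the nuclear members, 12 of 90, was near the background. Their median log2 fold change was -0.25, against -0.01 for all genes, and 80 of 90 had a value below 0. At an unadjusted p under 0.05, 22 nuclear members passed, beside 5151 of all 12457 genes tested. DESeq2 called 17 nuclear members lower and none higher, and its share over all genes was not counted. The 40 nuclear members whose 3 libraries all lay below the controls, and the 1 above, stand against 30.5% and 22.5% of all genes tested.

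The 12 lower members were spread over complexes I, II, IV and V. The accessory complex I subunit Ndufb9 had 66.5, 69.7 and 68.9 CPM in HM-1 cells labelled Cd276KO, against 156, 112 and 110 CPM in controls (log2 fold change -0.84, SE 0.15, edgeR adjusted p = 0.00823). Its groups lay far apart, with control 1 highest. Ndufs4, an accessory subunit whose loss in mice causes a Leigh-like disease, had 39.3, 37.8 and 38.9 CPM against 87.5, 54.9 and 53.3 CPM in controls (-0.72, SE 0.20, edgeR adjusted p = 0.0403). Ndufb6, a membrane-arm subunit, had 25.8, 29.9 and 26.1 CPM against 62.5, 39.0 and 37.4 CPM in controls (-0.72, SE 0.22, edgeR adjusted p = 0.0469). In these too the groups were separate and control 1 was the highest library. The assembly factors Ndufaf2 and Ndufaf8 fell by 0.68 and 0.62 on the log2 scale.

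In complex IV, Cox6c had 90.5, 86.5 and 89.7 CPM in HM-1 cells labelled Cd276KO, against 209, 130 and 124 CPM in controls (log2 fold change -0.76, SE 0.21, edgeR adjusted p = 0.0365). Cox7c fell by 0.67. The complex V subunits Atp5d of the central stalk and Atp5g2, one of the genes for the c-ring subunit, fell by 0.53 and 0.42 on the log2 scale. Of the 4 subunits of complex II, the flavoprotein Sdha had 196, 187 and 193 CPM in HM-1 cells labelled Cd276KO, against 225, 234 and 231 CPM in controls (-0.22, SE 0.07, edgeR adjusted p = 0.0453), and here control 1 was the lowest control. The membrane anchor Sdhc fell by 0.46, while the iron-sulfur subunit Sdhb (-0.28, SE 0.13) and the other anchor Sdhd (-0.11, SE 0.12) were not called.

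The members split when HM-1 control 1 was left out: 28 nuclear members were lower and 17 higher, with a median of -0.02 against 0.00 for all genes, and 59.1% of all genes tested were called, 28.6% higher and 30.4% lower. All 12 lower members were called lower again, with Ndufb9 at -0.65 (SE 0.04, edgeR adjusted p = 3.35e-16) and Ndufs4 at -0.43 (SE 0.05). Controls 2 and 3 lay close together, with a chi-square per gene of 1.57 between their counts, against 64.95 and 63.87 with control 1. The p-values and calls of this fit rest in part on that small spread. Among the 17 higher were Atp5b (0.11, SE 0.04), the ubiquitous cytochrome c oxidase isoform Cox4i1 (0.17, SE 0.04) and the core complex I subunit Ndufs1 (0.16, SE 0.04), chosen after their values were seen. Leaving out any 1 of the Cd276KO libraries left 1 lower nuclear member, and the shares over all genes in those fits were not counted.

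Among mitochondrial genes, mt-Nd5, a proton-pumping subunit of complex I, had 1424, 1120 and 1495 CPM in HM-1 cells labelled Cd276KO, against 576, 987 and 969 CPM in controls (log2 fold change 0.72, SE 0.22, edgeR adjusted p = 0.0484). mt-Nd2, another pumping subunit, had 1173, 882 and 1278 CPM against 796, 736 and 737 CPM in controls (0.59, SE 0.14, edgeR adjusted p = 0.0236). mt-Cytb, the only mitochondrial subunit of complex III, had 3885, 3135 and 4106 CPM against 2534, 2611 and 2619 CPM in controls (0.56, SE 0.11, edgeR adjusted p = 0.0128). The groups did not overlap in any of the 3, and the Cd276KO library 2 was the lowest of its group each time. The 7 mitochondrial genes with appreciable counts had log2 fold changes between 0.10 for mt-Co1 and 0.72 for mt-Nd5, and the other 3 tested are among the low genes not read as expression. The calls changed with single libraries left out: without Cd276KO library 1 or 3 none was called, without Cd276KO library 2 there were 2, without control 1 the only call was mt-Nd4 (0.49, SE 0.13, edgeR adjusted p = 0.0474), and 1 member was called without control 2 and 1 without control 3.

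**Figure D2:**
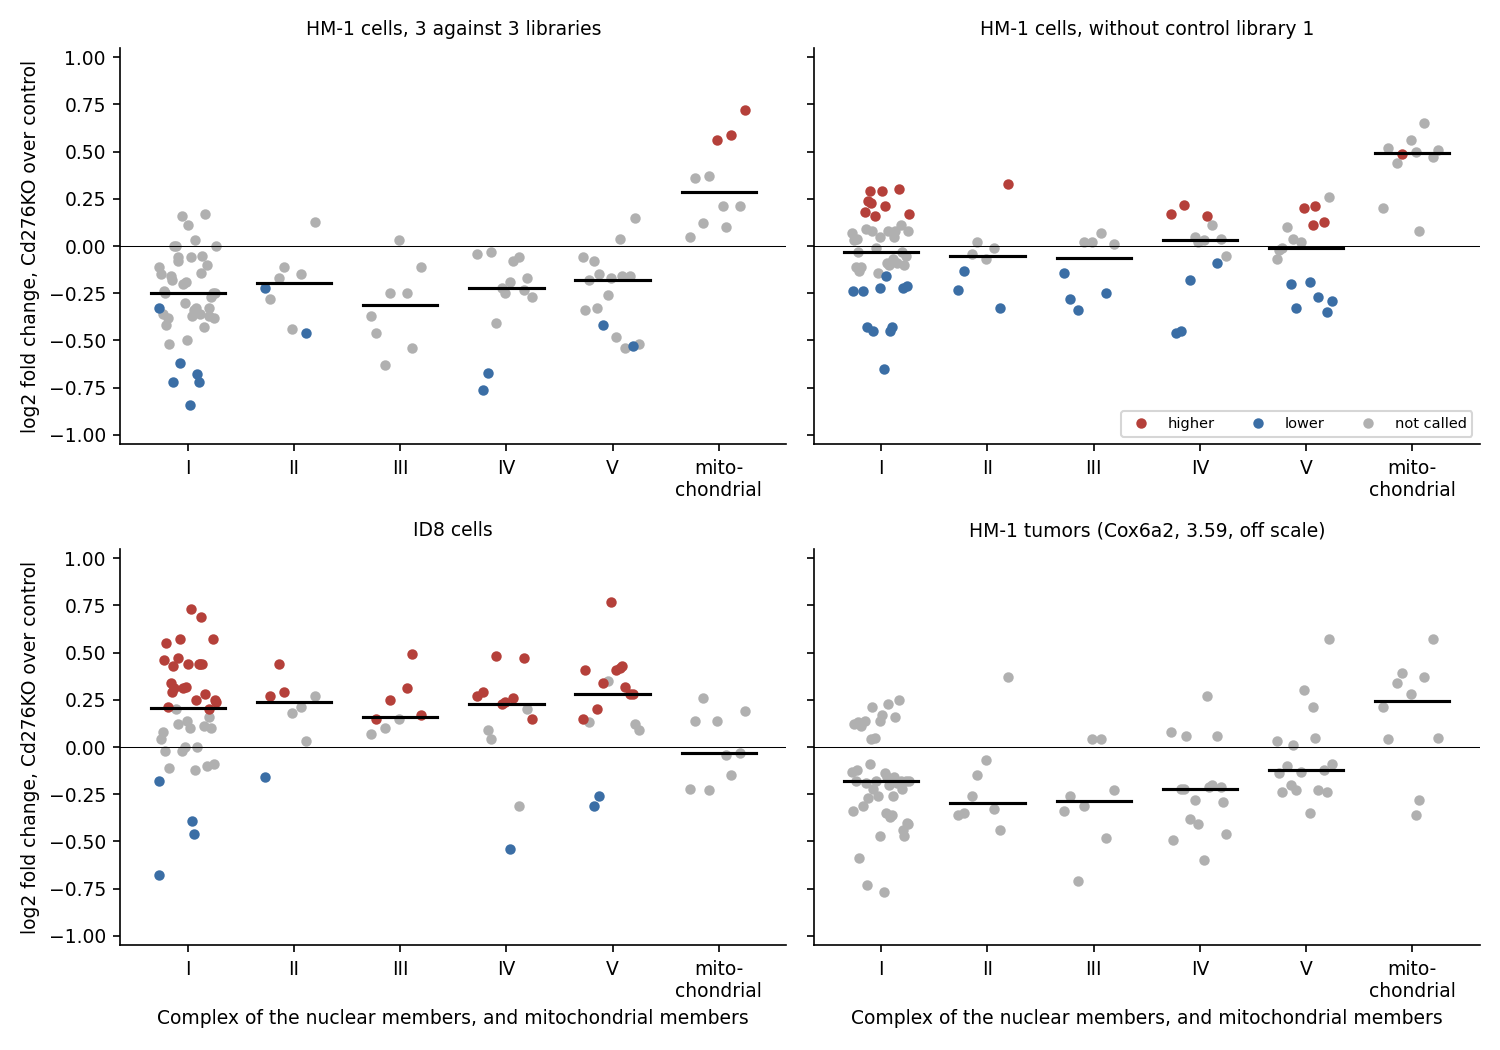
log2 fold change of each member, label Cd276KO over control, by complex of the nuclear members and for the mitochondrial members, with calls at adjusted p under 0.05 in color and the median as a line. In HM-1 cells the nuclear points lie mostly below 0 with all 3 controls and around 0 without control 1, in ID8 cells mostly above 0, and in tumors none is called.

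In ID8 cells labelled Cd276KO the nuclear members were mostly higher: 50 of 90 rose and 8 fell, while none of 9 mitochondrial members was called. Over all genes tested, 60.7% were called, 29.4% higher and 31.3% lower, and the median of all genes was -0.01 against 0.22 for the nuclear members. The higher calls came from every complex, with 23 of 44 in complex I, 3 of 8 in complex II, 5 of 8 in complex III, 8 of 13 in complex IV and 11 of 17 in complex V. With any 1 library left out, between 41 and 57 nuclear members were higher, whereas a single fit over all 18 libraries called 14 higher and 2 lower. The shares over all genes in these fits were not counted. For 37 members the 3 Cd276KO libraries all lay above the controls, and for 10 all below, against 25.1% and 39.2% of all genes. For mitochondrial members no p was under 0.05 even unadjusted, beside 8274 of all 12932 genes tested. DESeq2 also called none, and the genes with appreciable counts had log2 fold changes between -0.23 for mt-Nd5 and 0.19 for mt-Nd6.

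Atp5e, the epsilon subunit of the ATP synthase stalk, had 161, 129 and 123 CPM in ID8 cells labelled Cd276KO, against 92.4, 72.7 and 91.1 CPM in ID8 controls (log2 fold change 0.77, SE 0.13, edgeR adjusted p = 0.00165). The accessory complex I subunit Ndufa7 had 132, 113 and 113 CPM against 80.9, 63.7 and 82.9 CPM in controls (0.73, SE 0.10, edgeR adjusted p = 7.58e-05). Ndufs8, a core subunit carrying iron-sulfur clusters, had 159, 164 and 151 CPM against 104, 91.1 and 116 CPM in controls (0.69, SE 0.07, edgeR adjusted p = 2.33e-07). In all 3 genes every Cd276KO library exceeded every control. Ndufb8 and the assembly factors Ndufaf8 and Ndufaf6 rose by 0.57, 0.57 and 0.55 on the log2 scale. The catalytic Atp5b, the nuclear member with the most counts in every group, had 2565, 2726 and 2686 CPM against 2043, 2071 and 2189 CPM in controls (0.42, SE 0.06, edgeR adjusted p = 2.69e-06). In complex II, Sdhd and Sdhb rose by 0.29 and 0.27, Sdhc was not called (0.03, SE 0.06) and Sdha fell by 0.16.

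The lower members in ID8 cells included Ndufa1, Cox7b, Ndufb11, Ndufv3, Atp5j, Atp5o and Sdha. Ndufa1, an X-linked accessory subunit needed for complex I assembly, had 23.7, 21.9 and 24.2 CPM in ID8 cells labelled Cd276KO, against 43.0, 32.6 and 42.5 CPM in controls (log2 fold change -0.68, SE 0.10, edgeR adjusted p = 8.44e-06). Cox7b, also on chromosome X, had 106, 94.1 and 95.8 CPM against 162, 137 and 155 CPM in controls (-0.54, SE 0.07, edgeR adjusted p = 3.57e-07). Both genes had separate groups. Ndufb11 fell by 0.46, Ndufv3 by 0.39, Atp5j by 0.31 and the stalk subunit Atp5o by 0.26 on the log2 scale.

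The effects of the label Cd276KO differed between the lines. Tested as an interaction over 12 libraries, ID8 minus HM-1, 37 of 90 nuclear members were higher and 1 was lower, with a median of 0.48 against -0.03 for all genes, of which 40.4% were called, 19.8% higher and 20.7% lower. Of 10 mitochondrial members, mt-Nd5 was lower (-0.95, SE 0.35, edgeR adjusted p = 0.0436). The largest differences were those of Ndufaf8 (1.18, SE 0.18, edgeR adjusted p = 0.000234), Ndufb6 (1.15, SE 0.24, adjusted p = 0.00216) and Ndufs4 (1.13, SE 0.22, adjusted p = 0.00121). Without HM-1 control 1 the nuclear counts were 43 higher and 6 lower, 36 of the 37 were called again, and the median was 0.22. In that fit 49% of all genes were called, 24% higher and 25% lower, Ndufaf8, Ndufb6 and Ndufs4 stood at 1.01, 0.87 and 0.86, and mt-Nd5 was no longer called (-0.74, SE 0.40, edgeR adjusted p = 0.176).

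The promoters of Ndufaf8, Ndufb6 and Ndufs4 are shown for the 3 largest differences between the lines. That of Ndufa1 is shown for the 1 nuclear member called lower (-0.59, SE 0.20, edgeR adjusted p = 0.0291). In the same contrast, other genes on chromosomes 11, 4, 13 and X, where these genes lie, had medians of 0.22, 0.33, 0.16 and -0.69. The part of the chromosomes or of these promoters in the differences was not tested. Each window runs from 250 bases before to 50 after the annotated start, on the gene's own strand, from RefSeq with build GRCm38.p6. Ndufaf8 lies at chr11:120098684-120098983 (plus strand), Ndufb6 at chr4:40279372-40279671 (minus), Ndufs4 at chr13:114388045-114388344 (minus) and Ndufa1 at chrX:37191189-37191488 (minus). Capitals mark matches, on either strand, to CCGGAAG (ETS family factors such as GABPA) and AAGATGGCG (YY1), which are 2 of the 4 motifs searched.
Ndufaf8: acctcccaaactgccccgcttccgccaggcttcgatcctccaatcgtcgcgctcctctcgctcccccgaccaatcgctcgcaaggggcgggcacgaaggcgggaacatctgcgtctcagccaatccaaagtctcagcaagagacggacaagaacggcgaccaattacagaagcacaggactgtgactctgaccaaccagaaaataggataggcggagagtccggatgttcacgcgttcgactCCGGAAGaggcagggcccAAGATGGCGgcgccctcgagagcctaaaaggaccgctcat
Ndufb6: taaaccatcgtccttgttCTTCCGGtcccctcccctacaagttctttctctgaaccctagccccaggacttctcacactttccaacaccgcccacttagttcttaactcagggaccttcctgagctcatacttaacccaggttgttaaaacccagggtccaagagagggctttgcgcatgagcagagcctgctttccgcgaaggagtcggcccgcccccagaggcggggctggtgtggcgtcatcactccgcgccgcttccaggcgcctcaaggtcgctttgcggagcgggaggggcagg
Ndufs4: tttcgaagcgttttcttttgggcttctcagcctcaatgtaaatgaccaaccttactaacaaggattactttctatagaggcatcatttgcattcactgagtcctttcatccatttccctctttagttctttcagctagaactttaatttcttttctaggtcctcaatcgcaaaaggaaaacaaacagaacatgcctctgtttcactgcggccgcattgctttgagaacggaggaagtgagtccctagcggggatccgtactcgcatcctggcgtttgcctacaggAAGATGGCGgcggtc
Ndufa1: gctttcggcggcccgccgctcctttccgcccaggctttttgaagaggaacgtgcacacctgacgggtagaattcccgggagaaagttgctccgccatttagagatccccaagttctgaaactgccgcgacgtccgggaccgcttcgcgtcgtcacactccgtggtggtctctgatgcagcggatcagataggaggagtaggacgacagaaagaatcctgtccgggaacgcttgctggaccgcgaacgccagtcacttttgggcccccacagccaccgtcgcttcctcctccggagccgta

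Ndufaf8 holds 1 match to each of these motifs, Ndufb6 1 ETS match read on the other strand, Ndufs4 1 YY1 match and Ndufa1 none. Of the 97 nuclear symbols all matched RefSeq and 80 had at least 1 window, 85 windows in all. GCGCNTGCG, the NRF1 motif, occurred in 28 of the 85 (32.9%) against 6.31% of 32851 windows of all genes. CCGGAAG occurred in 24.7% against 8.86%, AAGATGGCG in 9.41% against 1.4%, and TNAAGGTCA, the motif of estrogen-related receptors, in 3.53% against 1.28%. Fold changes of members with and without a match are given side by side, without a test. In ID8 cells 27 members with an NRF1 match had a median of 0.20 (12 higher, 2 lower) and 50 without 0.25 (31 higher, 5 lower). In HM-1 cells the medians were -0.30 and -0.20, with 3 of 27 and 5 of 50 lower. Members with an ETS match had medians of 0.31 in ID8 cells (14 of 21 higher) and -0.23 in HM-1 cells, and those without 0.17 (29 of 56 higher) and -0.25. A match is a description of letters, not of binding.

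In tumors no member was called by edgeR. On simulated counts, this fit recovered 4% of genes changed 1.5-fold and 28% of those changed 2-fold. The lack of calls therefore does not show that members were unchanged. Of 94 nuclear members tested, 11 had an unadjusted p under 0.05, beside 3836 of all 15345 genes tested. By edgeR 5.38% of all genes tested were called, 2.2% higher and 3.18% lower. DESeq2 called 1 nuclear member higher and 5 lower, and its share over all genes was not counted. The nuclear median was -0.20 against -0.03 for all genes, and 68 of 94 values lay below 0. Without control tumor 3 the median was -0.03, against 0.01 for all genes, and 1 member was lower: Ndufs4 (-0.42, SE 0.10, edgeR adjusted p = 0.0477; 10.7% of all genes called, 4.82% higher and 5.87% lower). Ndufs4 had 45.2, 41.8 and 41.9 CPM in tumors labelled Cd276KO, against 60.9, 60.5 and 96.6 CPM in control tumors, and Ndufb9 had 70.3, 62.1 and 60.5 CPM against 92.0, 94.3 and 149 CPM. Both had separate groups with control 3 highest. In all, 29 nuclear members had every Cd276KO tumor below every control tumor and 3 every one above, against 20.6% and 14.2% of all genes. The 4 complex II subunits had values of -0.36 for Sdha, -0.35 for Sdhb, -0.44 for Sdhc and -0.15 for Sdhd, none of them called. The mitochondrial genes with appreciable counts had log2 fold changes between -0.36 for mt-Nd6 and 0.39 for mt-Nd4, and the 10 tested had 1 unadjusted p under 0.05 and no call by edgeR or DESeq2. Tested as an interaction, the effect of the label in tumors minus that in HM-1 cultures passed for no member by edgeR or DESeq2. At an unadjusted p under 0.05 there was 1 nuclear member, beside 2279 of all 15623 genes tested. By edgeR 2.84% of all genes were called, 1.72% higher and 1.12% lower.

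Against HM-1 cultures, more nuclear members were lower than higher in tumors, and 3 mitochondrial members were higher. In bulk tumor RNA, fewer cells of a type and less RNA per cell cannot be told apart, and tumors held leukocyte markers at 408 to 779 CPM in sum under the label Cd276KO and 988 to 1580 CPM in control tumors, against at most 6.24 CPM in HM-1 cultures. Fibroblast markers summed to 3103 to 4927 CPM in tumors labelled Cd276KO and 364 to 12270 CPM in control tumors, against 125 to 174 CPM in HM-1 cultures. Col3a1 alone had 122.6 to 172.7 CPM in those cultures, and every other gene of the list had at most 2.09 CPM there. The part of leukocytes and fibroblasts in the member differences was not tested. In control tumors over control cultures, 23 of 92 nuclear members were lower and 3 higher, with a median of -0.41 against 0.05 for all genes and 41.8% of genes called, 25.3% higher and 16.6% lower. In tumors over cultures labelled Cd276KO, 55 of 93 were lower and 9 higher, with a median of -0.29 against 0.08 and 75.7% of genes called, 41.2% higher and 34.5% lower. These comparisons share no library, and all 23 lower members of the first were lower in the second. Another scaling, by upper quartiles, moved the median of all genes by 0.14 and 0.17. It gave 11 lower and 3 higher in controls, and 37 lower and 15 higher under the label Cd276KO. Its shares over all genes were not counted. Without HM-1 control 1 and control tumor 3 the first comparison had 51 lower and 6 higher, with 59.8% of all genes called, 33.2% higher and 26.7% lower. For 43 nuclear members all 3 tumors labelled Cd276KO lay below their cultures and for 16 all above, against 30.3% and 48.4% of all genes. In controls these were 34 and 4 members, against 18.9% and 37% of all genes.

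Of the core subunits, 17 of 21 were lower under the label Cd276KO and 12 of 21 in controls, and of the accessory subunits 31 and 9 of 54, a difference between classes that was not tested. The ATP synthase subunit Atp5a1 had 402, 405 and 388 CPM in tumors labelled Cd276KO, against 649, 673 and 646 CPM in cultures with that label (log2 fold change -0.85, SE 0.07, edgeR adjusted p = 5.46e-06). In controls it had 448, 428 and 330 CPM in tumors, against 687, 711 and 712 CPM in cultures (-0.95, SE 0.15, edgeR adjusted p = 0.00295). Both pairs were separate. Atp5b fell by 0.76 and 0.94, and the c-ring genes Atp5g1 and Atp5g3 by 0.66 and 0.56 under the label Cd276KO and by 0.99 and 1.02 in controls. The assembly factor Ndufaf4 fell by 1.24 under the label Cd276KO (SE 0.08, edgeR adjusted p = 1.67e-06) and by 1.07 in controls (SE 0.19, edgeR adjusted p = 0.00447). It had 16.8, 16.0 and 16.2 CPM in tumors labelled Cd276KO against 36.1, 33.5 and 36.0 CPM in their cultures, and 24.2, 22.4 and 22.9 CPM in control tumors against 53.1, 37.9 and 40.4 CPM in control cultures.

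Of complex III, the core protein Uqcrc1 fell by 0.90 under the label Cd276KO and 0.80 in controls, and in complex II Sdhd fell by 0.69 and 0.67, Sdhb by 0.65 and 0.60 and Sdha by 0.48 and 0.36. Sdhc fell by 0.42 under the label Cd276KO and was not called in controls (-0.47, SE 0.20, edgeR adjusted p = 0.0927). The higher members under the label Cd276KO were the isoforms described below with Ndufv3 (0.84, SE 0.12, edgeR adjusted p = 0.000233), Atp5s, Cox7a2l, Ndufa6, Uqcrh and Cox6c. Cox7a2l, a factor of respiratory supercomplex assembly, rose by 0.49, and in control tumors it had 0.14 (SE 0.23), without a call. Ndufv3 had 49.0, 37.0 and 40.8 CPM in those tumors, against 20.9, 22.7 and 21.3 CPM in their cultures, while in controls it had 37.0, 42.9 and 84.3 CPM against 36.0, 24.5 and 25.6 CPM, without a call.

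Of 10 mitochondrial members tested, mt-Co1, mt-Nd4 and mt-Nd6 were higher in tumors in both pairs and none was lower, a share of 3 in 10 beside 41.2% of all genes higher under the label Cd276KO and 25.3% in controls. In each pair 2 of the 10 had values below 0. mt-Co1, the catalytic subunit of cytochrome c oxidase, had 7902, 10590 and 8583 CPM in tumors labelled Cd276KO against 4873, 3938 and 5117 CPM in their cultures (log2 fold change 0.82, SE 0.14, edgeR adjusted p = 0.000687). Control tumors had 10930, 13100 and 9767 CPM against 4254, 4530 and 4587 CPM in control cultures (1.19, SE 0.17, edgeR adjusted p = 0.00188). Both pairs were separate by a wide margin. mt-Nd4 rose by 0.83 and 0.80, and mt-Nd6, the only protein gene on the light strand, by 0.55 and 1.09, whereas mt-Nd5 had -0.45 (SE 0.26) under the label Cd276KO and 0.22 (SE 0.28) in controls. All 3 genes were higher under each scaling tried.

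**Figure D3:**
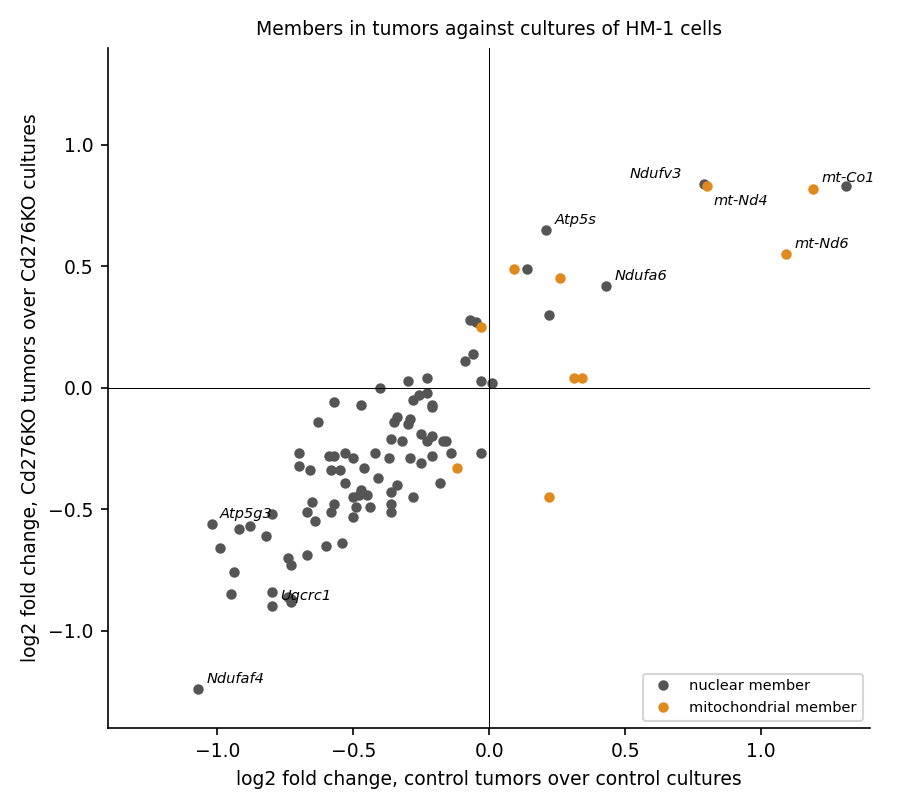
Each point is a member, by its log2 fold change in control tumors over control cultures (x) and in Cd276KO-labelled tumors over cultures (y), for HM-1. Most nuclear members lie in the lower left and mt-Co1, mt-Nd4 and mt-Nd6 in the upper right; Ndufa4l2 and Cox4i2 lie beyond the axes.

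Among the tissue isoforms of complex IV, Ndufa4l2 and Cox4i2 were present in tumors and nearly absent from cultures. Ndufa4l2, a hypoxia-induced relative of Ndufa4, had 15.4, 23.3 and 22.2 CPM in tumors labelled Cd276KO and 24.2, 29.5 and 22.4 CPM in control tumors, and at most 0.0955 CPM in any HM-1 culture. Cox4i2, the isoform of lung and hypoxic cells, had 7.62, 8.60 and 7.49 CPM in tumors labelled Cd276KO and 5.50, 5.82 and 8.76 CPM in control tumors, and at most 0.206 CPM in HM-1 cultures. Both were called higher in both pairs (edgeR adjusted p = 1.3e-07 and 8.97e-07 under the label Cd276KO, 7.37e-05 and 0.000287 in controls), with fitted folds that depend on the prior count because cultures were near 0. Of their common partners, Ndufa4 fell by 0.57 under the label Cd276KO and 0.88 in controls, and Cox4i1 had -0.07 (SE 0.12) and -0.21 (SE 0.25), without calls. ID8 cultures had at most 0.0646 CPM of Ndufa4l2 and 0.0747 CPM of Cox4i2. Endothelial markers also rose in tumors, with sums of 112.7 to 173.4 CPM under the label Cd276KO and 57.19 to 219.3 CPM in control tumors. HM-1 cultures had at most 4.394 CPM of them. The part of host cells in the levels of Ndufa4l2 and Cox4i2 was not tested.

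Cox6a2, the heart and skeletal muscle isoform, had 0.835, 4.26 and 2.65 CPM in tumors labelled Cd276KO, against 0.607, 0 and 0 CPM in control tumors (fitted log2 difference 3.59, SE 1.24, edgeR adjusted p = 0.137). The 15 striated muscle markers moved with it: they summed to 152 to 1107 CPM in tumors labelled Cd276KO, with a median of 1050, and to 3.94 to 172 CPM in control tumors, with a median of 6.20, with all 15 detected in both groups. Muscle markers in HM-1 cultures summed to at most 3.55 CPM. Cox8b, another muscle isoform, was at 0 in every culture and had 0, 1.36 and 0.749 CPM in tumors labelled Cd276KO and 0.243, 0 and 0 CPM in control tumors. Cox6a2 was called higher in tumors than in cultures under the label Cd276KO (edgeR adjusted p = 0.000231), where its common partner Cox6a1 fell by 0.39. The part of muscle in these values was not tested. Cox7a1, also of muscle, was higher in control tumors than in control cultures (1.31, SE 0.44, edgeR adjusted p = 0.0492) and not called under the label Cd276KO (0.83, SE 0.39, edgeR adjusted p = 0.0767). The testis isoform Cox6b2 was at 0 in HM-1 cultures and had 0.556, 0.554 and 0.346 CPM in tumors labelled Cd276KO and 0.850, 0.375 and 0.730 CPM in control tumors. Cox7b2 had 1 count in all 18 libraries and Cox8c none.

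**Figure D4:**
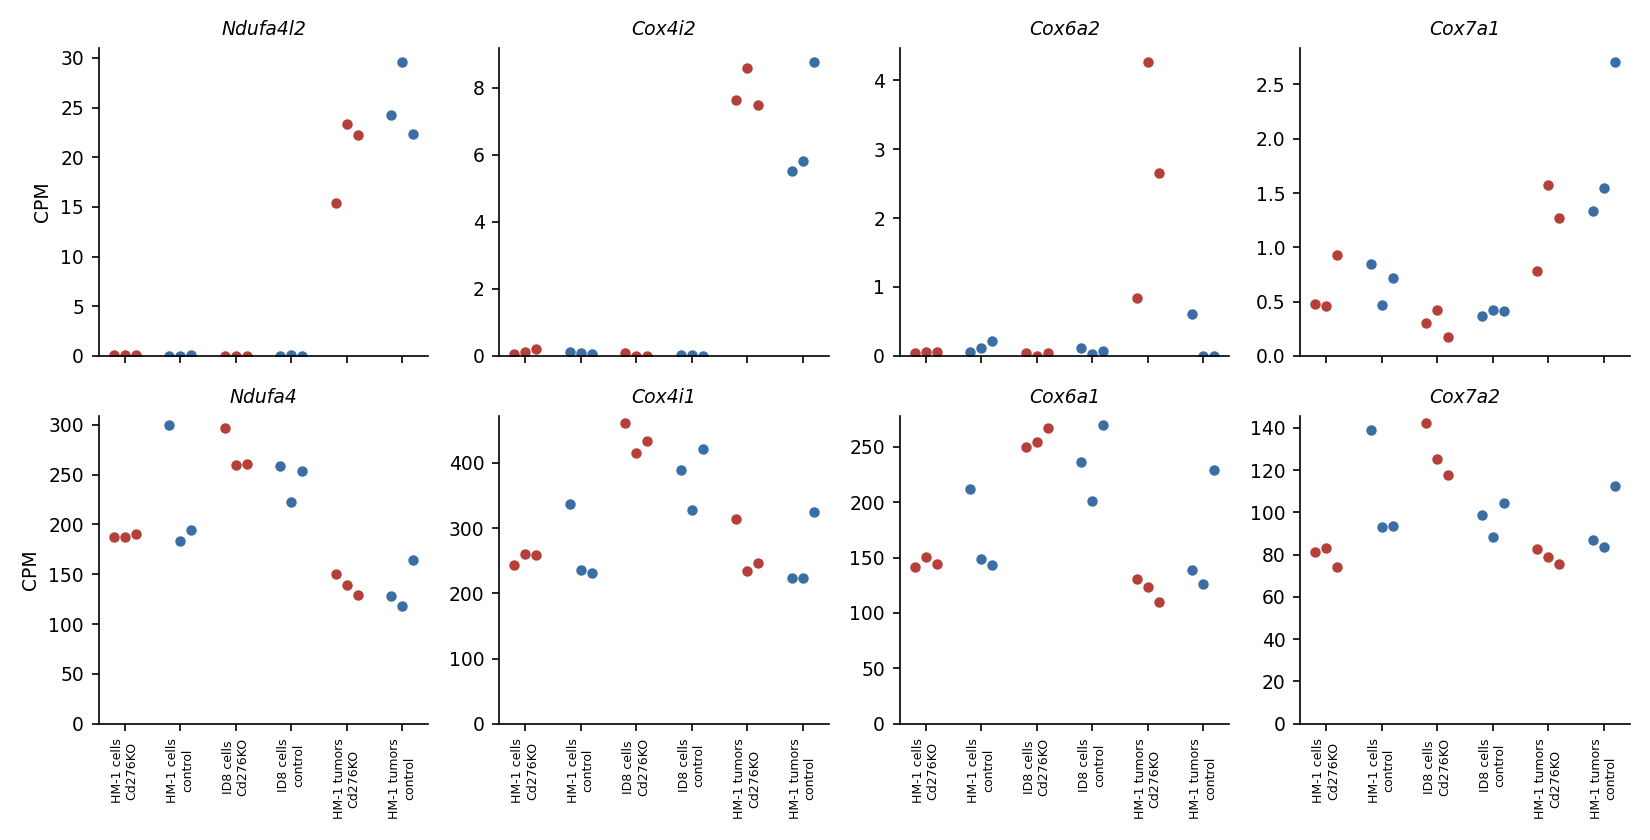
Levels in CPM of 4 tissue isoforms (top) and their common partners (bottom) in each library, with groups labelled Cd276KO in red left of their controls in blue, each panel with its own axis from 0. Ndufa4l2 and Cox4i2 are near 0 in all cultures and present in all tumors.

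Some members differed between ID8 and HM-1 controls, a contrast in which line, strain and medium cannot be told apart. Of 90 nuclear members 12 were higher and 3 lower in ID8, with a median of 0.13 against -0.01 for all genes. Over all genes tested 58.3% were called, 28.8% higher and 29.6% lower, so both member counts lay below those shares. Without HM-1 control 1 the counts were 57 higher and 5 lower, with a median of 0.32 against -0.00 for all genes. In that fit 75.3% of all genes were called, 37.4% higher and 37.9% lower. Upper-quartile scaling gave 7 higher and 3 lower, and its share over all genes was not counted. Ndufs8 had 104, 91.1 and 116 CPM in ID8 controls against 79.4, 57.4 and 55.01 CPM in HM-1 controls (log2 fold change 0.65, SE 0.17, edgeR adjusted p = 0.0131), and Ndufv3, Cox5b, Uqcrq, Cox8a and Ndufaf7 were higher by 0.74, 0.63, 0.59, 0.49 and 0.49. Ndufaf8 had 11.6, 12.1 and 11.6 CPM in ID8 controls against 27.3, 20.7 and 19.3 CPM in HM-1 controls (-0.97, SE 0.15, edgeR adjusted p = 0.000872), and Atp5d and Uqcrc1 were lower by 0.60 and 0.59. Of the mitochondrial genes, mt-Co1 was higher (0.47, SE 0.16, edgeR adjusted p = 0.0384) and mt-Cytb lower (-0.49, SE 0.16, edgeR adjusted p = 0.0285), and neither was called without HM-1 control 1.

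Fold changes of the members varied with the chromosome they lie on. In HM-1 cells labelled Cd276KO, the 7 members on chromosome 13 had a median of -0.63 and 4 of them were lower, against -0.23 and 30.3% lower for the other genes there, and the 4 on chromosome 15 had -0.59 with 3 lower, against -0.31 and 38.9% lower. The 5 on chromosome 11 had -0.48 against -0.17, and the 6 on chromosome 4 had -0.40 against -0.29. On chromosome 6, where other genes had a median of 0.28, the 5 members had -0.08. All 7 members on chromosome 13 and all 4 on 15 were lower without HM-1 control 1, where 59.4% and 66.7% of the other genes there were lower, and 4 of 5 on chromosome 6 were higher, beside 61.5% of the other genes. In tumors the members on chromosomes 13, 15 and 4 had medians of -0.47, -0.43 and -0.45, against -0.28, -0.22 and -0.25 for the other genes there, with no call. In ID8 cells all 3 members on chromosome X were lower, with a median of -0.54, where 84.0% of the other genes were lower with a median of -0.81. On chromosome 16 the median of the 3 members was -0.26 with 2 lower, against -0.49 and 74.7% lower. All 5 members on chromosome 19 were higher, with a median of 0.47, against 0.25 and 56.0% higher.

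Across nuclear members, the fold change correlated with the median of the other genes within 5 megabases, as a description of points that share libraries. Pearson's r and Spearman's rho were 0.69 and 0.64 over 90 members in HM-1 cells (0.77 and 0.72 without control 1), 0.68 and 0.54 over 90 in ID8 cells, and 0.38 and 0.65 over 94 in tumors. DNA copy number was not measured, and its part was not tested.

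**Figure D5:**
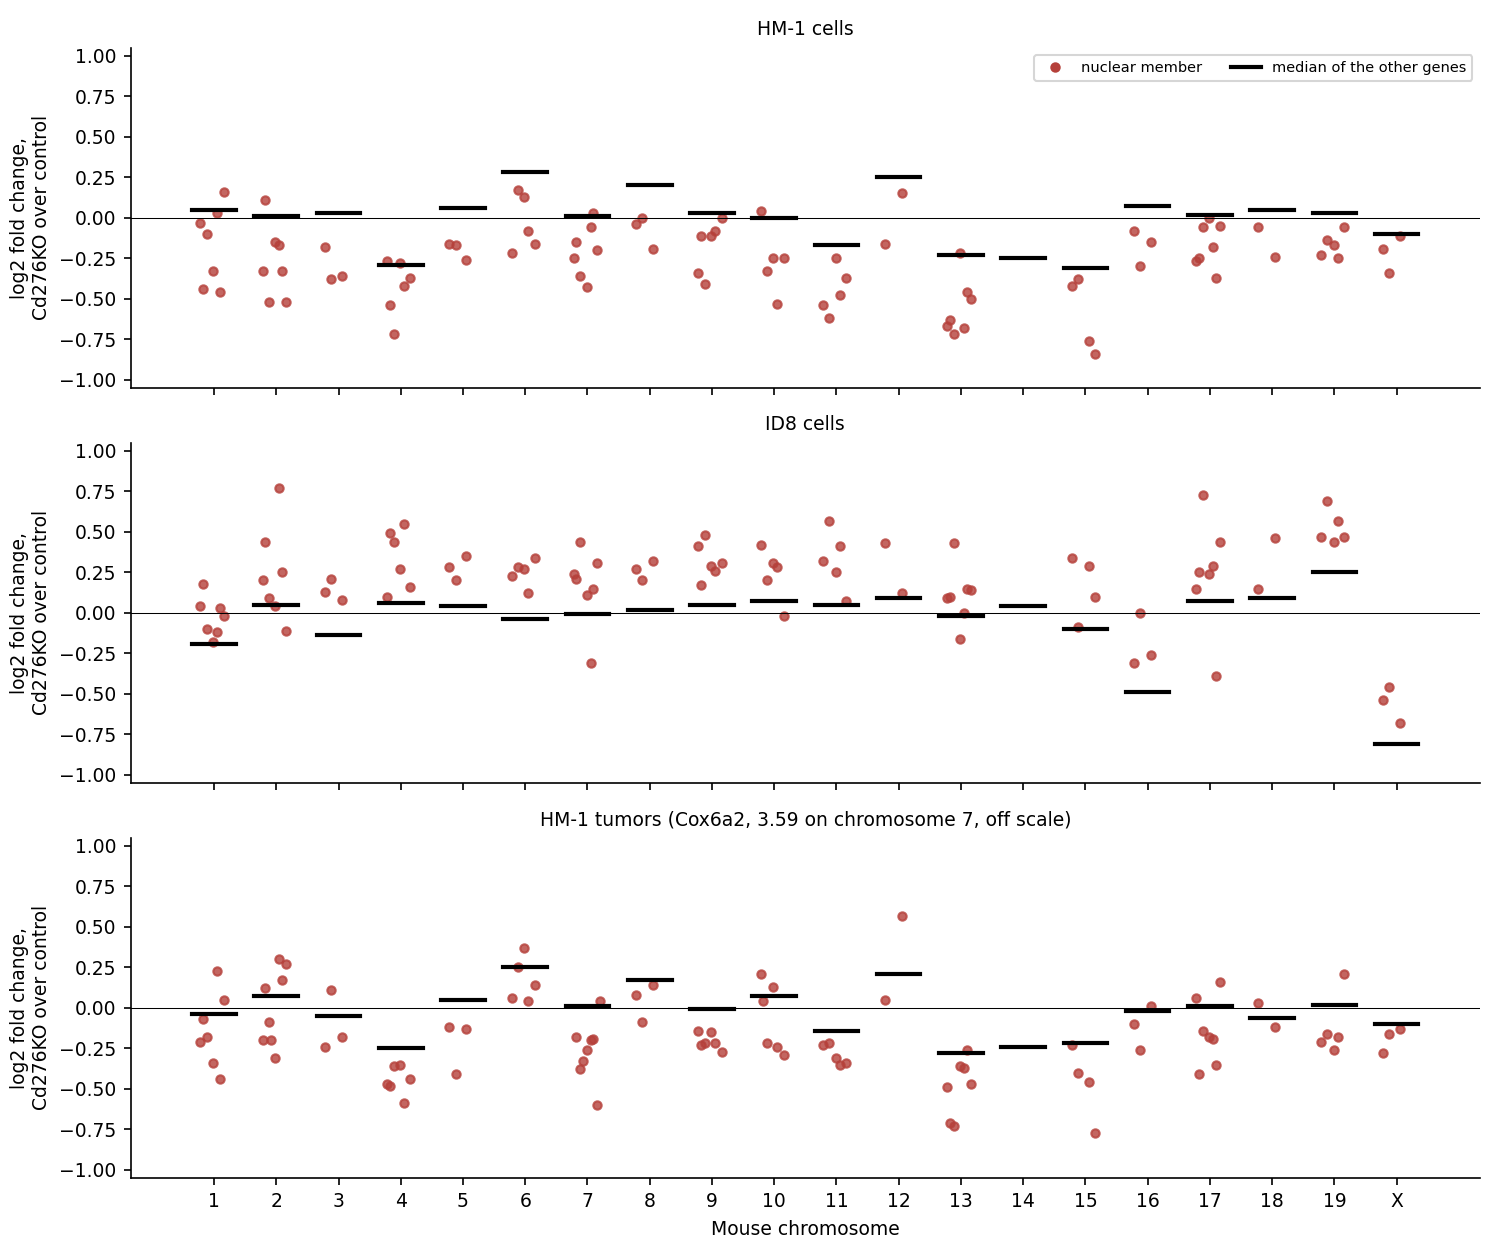
log2 fold change, label Cd276KO over control, of each nuclear member (points) by chromosome, with the median of the other genes tested on that chromosome (lines). The 3 members on X lie below 0 in ID8 cells with the other genes there. All members on chromosomes 4, 5, 11, 13, 15 and X lie below 0 in both HM-1 cells and tumors. Over all chromosomes, 80 of 90 members lie below 0 in HM-1 cells and 68 of 94 in tumors.

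Other genes of respiration were counted in 5 lists, to be read beside the shares of all genes called: 11.6% higher and 16.1% lower in HM-1 cells, 29.4% and 31.3% in ID8 cells, and 2.2% and 3.18% in tumors. Of 16 tested electron carriers and coenzyme Q synthesis genes, 3 were lower and none higher in HM-1 cells labelled Cd276KO, 8 higher and 2 lower in ID8 cells, and 1 lower in tumors. That 1 was Coq3, a methyltransferase of coenzyme Q synthesis, with 5.395, 4.30 and 4.28 CPM in HM-1 cells labelled Cd276KO against 22.7, 18.9 and 18.3 CPM in controls (log2 fold change -2.06, SE 0.15, edgeR adjusted p = 0.000179). In tumors it had 5.73, 5.19 and 5.36 CPM against 14.7, 12.4 and 22.6 CPM in control tumors (-1.58, SE 0.29, edgeR adjusted p = 0.0362). It was separate from controls in both settings. Of 40 assembly factors, a list that also holds the 4 Sdhaf members, 2 were higher and 5 lower in HM-1 cells, 18 higher and 7 lower in ID8 cells, and none called in tumors. Surf1, an assembly factor of cytochrome c oxidase, fell by 0.85 in HM-1 cells, and Pet100, another, rose by 0.97 in ID8 cells, while Uqcc3 of complex III fell by 0.75 in HM-1 and rose by 0.63 in ID8 cells.

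Of 31 genes of mitochondrial genome expression, 4 were lower in HM-1 cells, and 18 were higher and 2 lower in ID8 cells. Hsd17b10, a component of the mitochondrial RNase P, was lower in both lines, with -0.86 (SE 0.16) in HM-1 and -0.94 (SE 0.07) in ID8 cells. HM-1 controls had 214.2, 154.3 and 142.8 CPM of it, with control 1 highest, against 90.9, 92.35 and 91.27 CPM under the label Cd276KO. Without control 1 it was called lower again. Hsd17b10 is X-linked in mice. In ID8 cells 84.0% of the genes on chromosome X other than members were lower, with a median of -0.81. In HM-1 cells 20.9% of them were lower, with a median of -0.10. The part of the chromosome in the values of Hsd17b10 was not tested. In ID8 cells Fastkd2, an RNA-binding protein of mitochondrial ribosome assembly, rose by 0.57. Of 16 regulators of respiratory gene transcription, 3 were higher and 2 lower in HM-1 cells and 5 higher and 6 lower in ID8 cells, near those shares. Epas1, which encodes the hypoxia-inducible factor HIF-2 alpha, had 0.0955, 0.102 and 0.155 CPM in HM-1 cells labelled Cd276KO, against 6.64, 12.9 and 11.4 CPM in controls (-6.36, SE 0.41, edgeR adjusted p = 0.000129), and Hif1a rose by 0.72. Ppargc1a, a coactivator of mitochondrial biogenesis, fell by 1.01 in ID8 cells at a mean of 0.533 CPM under the label Cd276KO and 1.11 CPM in controls.

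Of 21 genes of the tricarboxylic acid cycle and pyruvate dehydrogenase, 1 was higher and 3 lower in HM-1 cells and 4 higher and 4 lower in ID8 cells, no more than the shares of all genes in ID8 cells. In ID8 cells Pdha1 and Idh3g, both X-linked in mice, fell by 0.82 and 0.73. In tumors over cultures 18 of 21 were lower under the label Cd276KO and 16 of 21 in controls, beside 34.5% and 16.6% of all genes, with medians of -0.70 and -0.55 against 0.08 and 0.05. Without HM-1 control 1 the counts in HM-1 cells were 1 higher and 8 lower for electron carriers and coenzyme Q synthesis, 11 and 8 for assembly factors, 6 and 10 for mitochondrial genome expression, 7 and 4 for regulators, and 6 and 8 for the tricarboxylic acid cycle list, beside 28.6% higher and 30.4% lower of all genes.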

How the data were processed

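Per the labels' protocols, the RNeasy Mini Kit was used for RNA. The authors deposited whole-number counts of reads per gene, and the submitters' processing notes name Trim Galore, STAR, HTSeq and the builds GRCm38 and mm10. For the strand setting, the counting mode and tool versions, nothing was given in the sources used here. Genes were matched to GENCODE M21 of GRCm38 by identifier.

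The counts were used as deposited. Each comparison of 3 against 3 libraries was fitted over all genes kept by filterByExpr with TMM scaling and edgeR's robust quasi-likelihood test (edgeR 4.0.16, limma 3.58.1, R 4.3.3), adjusted by Benjamini-Hochberg over all genes tested and called at an adjusted p under 0.05. The 2 interactions used 12 libraries each. Levels are CPM, counts per 1000000 counts of the library, and TPM used exon lengths from the annotation. Calculations used Python 3.11.15, pandas 2.3.3 and matplotlib 3.10.9, and the fit was tested on simulated counts. Of genes changed 1.5-fold and 2-fold there, it recovered 32% and 84% in HM-1 cells and 84% and 92% in ID8 cells. For control tumors over control cultures it recovered 2% and 24%. Alternatives were RLE and upper quartile scaling, scaling without mitochondrial genes, no filter, DESeq2 1.42.0, all 18 libraries in 1 fit, a replicate block, a threshold of 0.01 and each library left out. Leaving out both control libraries that stand apart was added after the data were seen.

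Genes given with values were the mitochondrial members called, the Sdh genes, the tissue isoforms with their partners, and per comparison up to 6 higher and 6 lower called nuclear members of at least 5 CPM with the largest fold changes (3 per direction in interactions), with up to 2 genes per list. The members, lists and tests were chosen with earlier results of these data known. Library totals, from 17349082 to 30959773 counts, limit the precision for genes of few counts.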

Additional observations from a re-analysis of the deposited data

Results flagged for a closer look

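By edgeR's interaction test over 12 libraries, the effect of the label Cd276KO differed between ID8 and HM-1 cells in many members. Called were 37 nuclear members higher, 1 nuclear member lower and 1 mitochondrial member lower, beside 19.8% higher and 20.7% lower of all genes. Only 5 of these members are given here. The differences, ID8 minus HM-1 on the log2 scale, were 1.18 for Ndufaf8, 1.15 for Ndufb6, 1.13 for Ndufs4, -0.95 for mt-Nd5 and -0.59 for Ndufa1. Ndufs4 had 84.8, 79.0 and 77.3 CPM in ID8 cells labelled Cd276KO, against 67.9, 58.1 and 63.0 CPM in ID8 controls, and thus rose there (log2 fold change 0.43, SE 0.07, edgeR adjusted p = 5.81e-06) while it fell in HM-1 cells. Ndufb6 had 90.7, 73.9 and 75.8 CPM against 62.6, 56.9 and 67.5 CPM in ID8 controls (0.44, SE 0.08, edgeR adjusted p = 0.000111). mt-Nd5 had 1223, 763 and 666 CPM against 1326, 1143 and 806 CPM in ID8 controls, which overlapped. Without HM-1 control 1, Ndufa1 stood at -0.75 (edgeR adjusted p = 9.01e-05) and mt-Nd5 was not called. These genes are the largest of those called in each direction under the rule for named genes, and the chromosomes and libraries that moved with them are given above.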

How the results depend on the processing

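Counts of called members, main value first in brackets, moved by over 1.5 times as follows. The cause was not tested unless the setting removes libraries or tightens the threshold. Shares of all genes called were not counted in these settings, except without both libraries that stand apart, where they are given above. In HM-1 cells lower nuclear members (12) were 20 with no filter, 5 with a replicate block and 1 at an adjusted p under 0.01, and higher mitochondrial members (3) were 1 with all 18 libraries in 1 fit and 0 at 0.01. In ID8 cells the fit of all 18 libraries gave 14 higher (50) and 2 lower (8), and the block 1 lower mitochondrial member (0). In tumors higher and lower nuclear members (0 and 0) were 1 and 5 with DESeq2 and 2 and 7 with all 18 libraries. In control tumors over control cultures higher members (3) were 5 with all 18 libraries and 6 without both libraries that stand apart. Lower members there (23) were 35 with DESeq2, 49 with all 18 libraries, 40 with no filter, 13 with the block, 11 with upper quartile scaling, 51 without both libraries and 5 at 0.01, and higher mitochondrial members (3) were 6 without both libraries. In tumors over cultures labelled Cd276KO upper quartile scaling gave 15 higher (9), and no filter 1 lower mitochondrial member (0). In ID8 over HM-1 controls higher members (12) were 19 with DESeq2, 25 with no filter, 7 with upper quartile scaling and 3 at 0.01, and lower members (3) were 5 with all 18 libraries. The higher mitochondrial member there (1) was 0 with the block, with upper quartile scaling and at 0.01, and the lower one (1) was 0 at 0.01. For the difference between the lines, higher nuclear members (37) were 56 with no filter and 20 at 0.01, lower ones (1) were 2 with no filter, 0 with upper quartile scaling and 0 at 0.01. The lower mitochondrial member (1) was 0 with all 18 libraries, with the block and at 0.01, and 5 with no filter.

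Sums moved by more than the spread in 4 cases: TMM-scaled, nuclear members were 0.99% in HM-1 cells labelled Cd276KO and 1.498% in ID8 cells labelled Cd276KO, and mitochondrial members 1.15% in HM-1 controls, which had 1.13% as a share of protein-coding counts.

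Each library was left out in turn, and shares of all genes were counted only for the fits given with them above. HM-1 cells had 0 to 17 higher and 1 to 28 lower nuclear members and 0 to 2 higher mitochondrial members. ID8 cells had 41 to 57 higher and 6 to 11 lower, and tumors 0 to 1 lower. Control tumors over cultures had 2 to 3 higher and 9 to 30 lower, with 2 to 4 higher mitochondrial members, and the lowest counts came without control tumor 1 (9) or 2 (10). Tumors over cultures labelled Cd276KO had 9 to 11 higher and 50 to 73 lower, with 2 to 3 higher and 0 to 2 lower mitochondrial members. ID8 over HM-1 controls had 3 to 57 higher and 2 to 5 lower, with 0 to 1 higher and 0 to 2 lower mitochondrial members. The difference between the lines had 27 to 53 higher and 0 to 6 lower, with 0 to 3 lower mitochondrial members, and the difference between tumors and HM-1 cells 0 to 1 higher. Of the values of named genes, 1378 kept direction and side of the threshold, 194 lost the call, 12 gained one and none reversed. The kept values include genes not called in the main fit. In HM-1 cells 15, 12 and 14 calls were lost without Cd276KO library 1, 2 or 3, and 14 at an adjusted p under 0.01. In ID8 cells the most lost in a setting was 9, with all 18 libraries in 1 fit.

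Deviations of libraries with the same number had correlations of 0.0114, -0.0177 and 0.0164 in HM-1 cells and 0.154, 0.0368 and 0.152 in ID8 cells. In tumors they were -0.602, -0.0178 and -0.0941. Between different numbers they ran from -0.0551 to 0.041 in HM-1 cells, -0.203 to 0.0782 in ID8 cells and -0.496 to 0.609 in tumors. No pairing by number was seen in HM-1 cells or tumors. In ID8 cells 0.154 and 0.152 exceeded every value between different numbers, and whether the numbers pair those samples was not settled. Depth limits the isoforms near 0.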
